A study of Sebastes mystinus with 44 samples.

Results

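Among 239549 assembled features of blue rockfish white muscle, 150 were picked as those whose level differed most steadily, in 1 direction at 3 sampling times, between fish in seawater of raised carbon dioxide and the other fish. The members were chosen by these measured values: for each feature the level L = log2(CPM + 1), with CPM as counts relative to the library total, was averaged by group, and E was the mean of the pH and cross groups minus the mean of the control and DO groups. Features with a mean of 5 to 500 CPM over all fish and E of the same sign at 12 h, 24 h and 2 weeks were ranked by the smallest size of E over the 3 times, and the first 150 were kept. Of the 8371 features in that level band, 637 had E of 1 sign at all times, and the 150 members came from these. In 30 members pH and cross fish were higher, and in 120 they were lower.

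Juvenile blue rockfish (Sebastes mystinus, a marine fish of the eastern Pacific kelp forest) were held in aquaria with flowing seawater, and white muscle was taken after 12 h, 24 h or 2 weeks. For the control group no change of the seawater is named, the pH group had pH lowered with carbon dioxide (high pCO2), and the DO group had dissolved oxygen lowered with nitrogen. The labels give no meaning for cross. From knowledge of the study it is taken here as both exposures combined, and E counts it so. At each time there were 4 fish per group, except 3 pH and 3 DO fish at 24 h and 2 pH fish at 2 weeks, so 21 fish stood against 23. Each library came from another fish. The aquarium of a fish is not given, so several fish of a group may come from a shared one. The names of cross fish run from Mys7064 to Mys7079 and those of the others from Mys13 to Mys60, and a separate origin or handling of cross fish cannot be told apart from their exposure.

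Carbon dioxide dissolved in seawater lowers its pH and enters the blood of fish, which restore blood pH mainly by moving acid and base across the gills. White muscle is the bulk of a fish's body and works in short bursts on glycolysis, and its cells hold strong buffers against acid. No gene names come with the features, so no member can be given a function, the tissue label was not checked against muscle, blood or skin markers, and no sequence is shown. In bulk tissue, fewer cells of a type and less RNA per cell cannot be told apart.

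The 44 libraries held 9884996 to 36692935 counts, so 3 counts stood for 0.0818 to 0.303 CPM. The 100 most abundant features took 42.1% to 64.9% of counts. That share had medians that differed between the exposures in opposite ways at different times, and its ranges overlapped at each time. Its median was 54.8% in pH and cross fish and 59.8% in control and DO fish at 12 h. It was 56.7% and 50.9% after 24 h, and 59.8% and 56.1% after 2 weeks. At 12 h pH and cross libraries were also deeper in the median, with 18653238 counts against 13851026. Their ranges overlapped, at 11026615 to 36692935 and 12196578 to 25071601 counts.

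Levels of most features shifted together between the exposures, and the members have to be read against that shift. Over the 8371 features of the band, the median of E was 0.20 at 12 h and -0.14 at 24 h, and it was -0.22 at 2 weeks. E was above 0 in 81.5%, 29.4% and 18.2% of features. With library sizes scaled by TMM, which adjusts for a few features taking many counts, the medians were 0.08, -0.02 and 0.00. How far the share of the most abundant features sets these medians was not tested.

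Among the 120 lower members the median of E was -0.21, -0.27 and -0.43 at the 3 times in turn. Relative to the median of the band, these values were -0.41, -0.13 and -0.22. All 120 lay below the band median at 12 h, 112 did at 24 h and 101 at 2 weeks. Among the 30 higher members the median of E was 0.29, 0.35 and 0.39, and relative to the band 0.09, 0.49 and 0.61. Of these, 23 lay above the band median at 12 h, and all 30 did at 24 h and at 2 weeks. The shift of the band and the choice together fix this order for lower members at 12 h and for higher members at 24 h and 2 weeks. They set the other counts only in part.

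**Figure D1:**
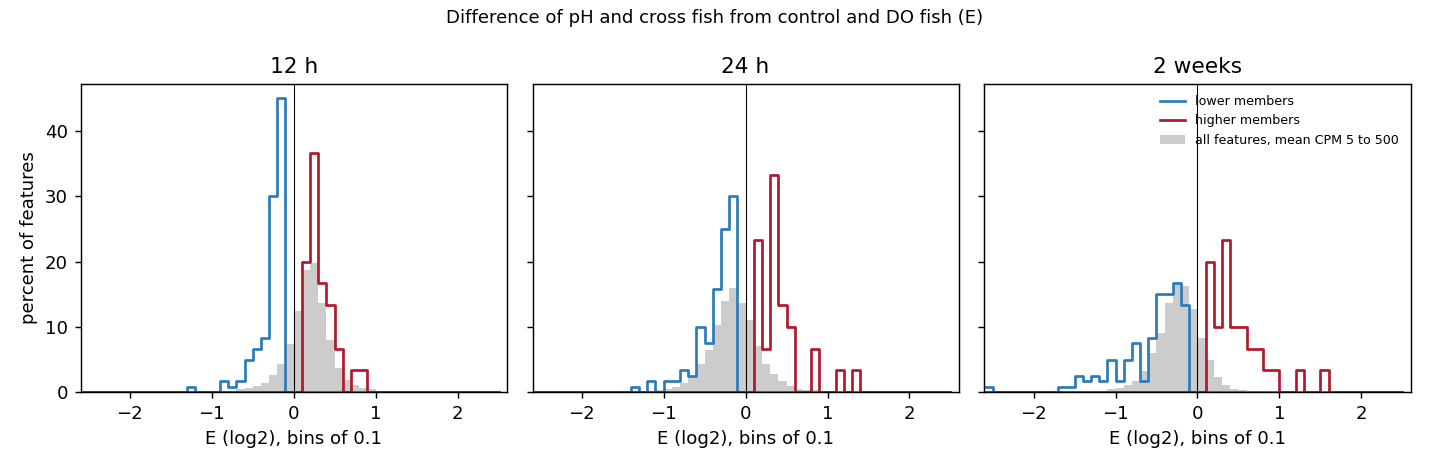
Percent of features (y axis) by E in log2 units (x axis, bins of 0.1) at 12 h, 24 h and 2 weeks, for all 8371 features of the band (grey), the 120 lower members (blue line) and the 30 higher members (red line). The grey distribution sits right of 0 at 12 h (median 0.20) and left of 0 at 24 h and 2 weeks (medians -0.14 and -0.22), and the gap around 0 in the members comes from their choice.

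The sizes were small. The smallest |E| over the 3 times had a median of 0.18 among members, was at least 0.2 in 57, at least 0.3 in 20 and at least 0.5 in 5. The 150th feature (TRINITY_DN54199_c9_g1) entered at 0.1108 and the next one (TRINITY_DN50033_c6_g3) stayed out at 0.1102. The largest value was 0.95, in TRINITY_DN45595_c3_g4. E was largest in size at 2 weeks in 81 of the 120 lower and 15 of the 30 higher members, where the pH group had 2 fish. The median of E in the band was also lowest then (-0.22). Relative to the band median, the median E of lower members was largest in size at 12 h (-0.41) and that of higher members at 2 weeks (0.61). In how many band features E was largest at 2 weeks was not counted.

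The rule was repeated after shuffling the exposure labels among the fish of each time, 100000 times. The 150th value was 0.19 in the median shuffle, with a range of 0.04 to 0.57, against 0.11 with the real labels. A value as large as the real one came up in 97.7% of shuffles (one-sided permutation p = 0.977). The real labels gave 637 features with E of 1 sign at all times, while the median shuffle gave 1940, and 0.696% of shuffles gave as few or fewer. The same rule applied to the oxygen contrast (DO and cross against control and pH) gave 1745 features of 1 sign and an entry value of 0.18, which 58.7% of shuffles reached. With shuffles only between groups of the same oxygen condition 97.2% reached the pCO2 value, and with TMM scaling 93.5% reached the value of 0.13 found on that scale. In the first case 1.12% of shuffles gave 637 or fewer features of 1 sign, with 1888 in the median shuffle. With TMM scaling the real labels gave 1152 such features and the median shuffle 2032, and 1.18% of shuffles gave as few or fewer. The entry value did not stand above the shuffles, so the comparison gives the label of a pCO2 effect no backing. It does not decide on single features. The median of E in the band changed sign between 12 h and the later times. The part of that shift in the 637 and in the entry value was not tested. The 150 features are called members below.

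**Figure D2:**
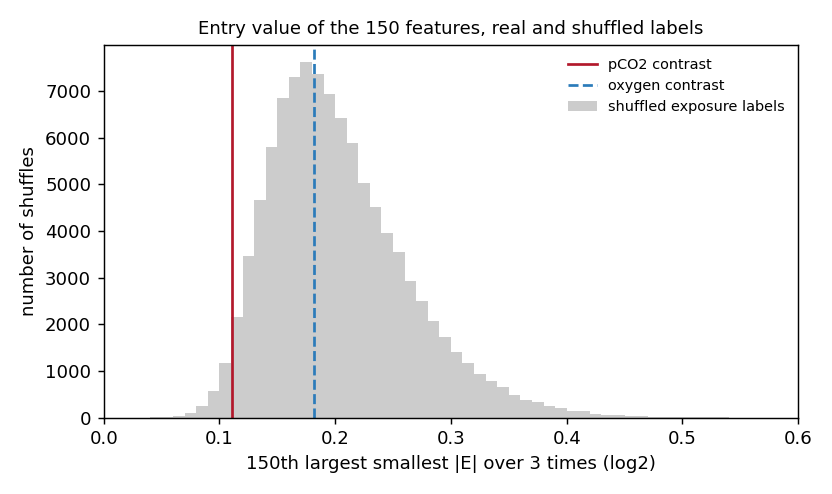
Number of 100000 shuffles (y axis) by the 150th largest smallest |E| in log2 units (x axis, bins of 0.01), with the values of the real pCO2 contrast (red line, 0.11) and of the oxygen contrast (dashed blue line, 0.18). The pCO2 line lies in the lower tail of the shuffles, whose median is 0.19.

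E averages a difference without lowered oxygen (pH minus control) and a difference with it (cross minus DO). Which of them was larger differed between the scale of the rule and edgeR. The rule took means of log2 values and edgeR fitted counts with TMM scaling, and the part of scaling alone was not tested. On the scale of the rule the median pH minus control of the lower members was -0.29, -0.49 and -0.61 at the 3 times in turn, against -0.15, -0.12 and -0.30 for cross minus DO. With TMM scaling in edgeR the order was the other way at 12 h and 2 weeks, with medians of -0.30, -0.37 and -0.09 for pH minus control and -0.50, -0.13 and -0.42 for cross minus DO. On the scale of the rule pH was below control in 110, 116 and 116 of the 120, where it was so in 3810, 6318 and 7384 of the 8371 band features. Cross was below DO in 90, 76 and 94 lower members, and in 1441, 4520 and 3345 band features. The pH group had the lowest mean of the 4 groups in 66, 105 and 85 lower members, and in 877, 4357 and 5620 band features. In the higher members the medians were 0.29, 0.29 and 0.47 for pH minus control and 0.37, 0.32 and 0.40 for cross minus DO. With TMM scaling in edgeR they were 0.36, 0.70 and 1.10 against 0.03, 0.08 and 0.33. All 6 differences had the member's sign in 41 members, 35 lower and 6 higher. In the other 109 at least 1 of the 6 went the other way. These values were all used in the choice and are given as a description.

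At no time did any member have all pH and cross fish on 1 side of all control and DO fish. In the band this held for 2 features at 12 h (0.0239%), 1 at 24 h (0.0119%) and 3 at 2 weeks (0.0358%). The spread between fish of 1 group (SD of L, pooled over the 12 groups) had a median of 0.66 in members and 0.45 in the band, and 63 members lay above the 90th percentile of the band, 0.74. Higher members varied more, with a median SD of 0.98 against 0.62 in lower members. In no member did the smallest |E| exceed this SD. It exceeded 0.5 times the SD in 13 members, the median ratio was 0.29 and the highest 0.69. Mean levels were ordinary for the band, with a median of 11.8 CPM in members and 13.2 CPM in the band.

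**Figure D3:**
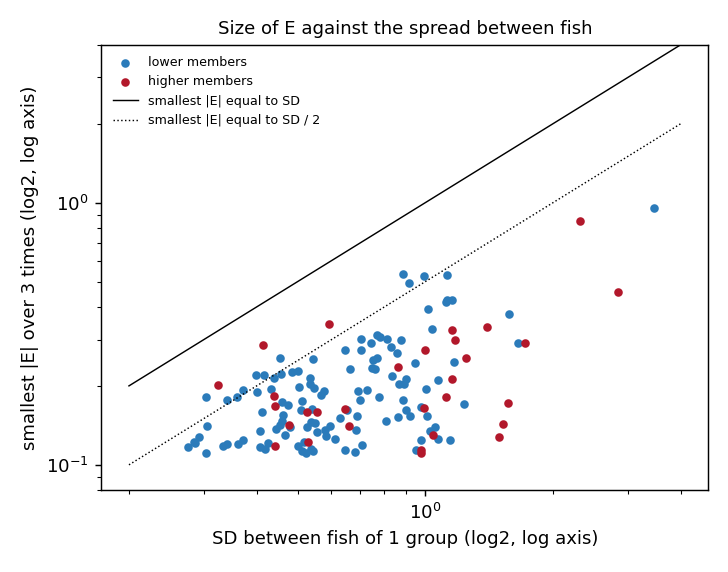
Smallest |E| over the 3 times (y axis, log2 units on a log axis) against the SD between fish of 1 group (x axis, log2 units on a log axis) for the 120 lower (blue) and 30 higher (red) members, with lines where the 2 are equal (solid) and where |E| is 0.5 times the SD (dotted). All points lie below the solid line and 13 lie above the dotted one.

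The 2 leading members by smallest |E| were near on-off in single fish. TRINITY_DN45595_c3_g4, the lower member with the largest value (E of -1.28, -0.95 and -1.54 at the 3 times), was at 114 to 1371 CPM in 20 of the 44 fish and at 13.96 CPM or less in the other 24. At 12 h control fish were at 1318, 788, 11.9 and 4.19 CPM, and pH fish at 741, 12.4, 5.16 and 4.10 CPM. DO fish were then at 774, 765, 10.2 and 9.30 CPM, and cross fish at 724, 577, 4.56 and 4.402 CPM. Each of the 4 groups thus held fish in both states at 12 h. At 24 h 3 of 4 control, 1 of 3 pH, 0 of 3 DO and 1 of 4 cross fish were in the high state, and at 2 weeks 2 of 4 control, 0 of 2 pH, 3 of 4 DO and 3 of 4 cross fish were. Over all times the high state was found in 7 of 12 control, 5 of 11 DO, 2 of 9 pH and 6 of 12 cross fish, and at each time the mean share of fish in it was lower over pH and cross than over control and DO. On linear counts edgeR gave a fold of the other sign at 24 h (log2 fold change 1.19, against E of -0.95). Leaving out 1 fish moved E by over 1.5 times at each time. At 12 h E ran from -2.11 without pH fish Mys20 to -0.64 without control fish Mys13, and it also moved so without control fish Mys14 or Mys16, DO fish Mys21 or Mys23, or cross fish Mys7064 or Mys7067. At 24 h it ran from -1.999 without pH fish Mys31 to -0.36 without pH fish Mys32, and moved so without control fish Mys25 or Mys26, pH fish Mys30, or cross fish Mys7069 or Mys7071. With group medians E was -2.09 at 12 h and -3.09 at 24 h. At 2 weeks it ran from -2.44 without DO fish Mys58 to -0.72 without cross fish Mys7079, and moved so without control fish Mys49 or Mys51. The level of 100 CPM that divides the states was chosen after the values were seen.

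TRINITY_DN48644_c0_g1, the higher member with the largest value (E of 0.85, 0.85 and 1.26), was at 24.0 to 444 CPM in 7 fish and at 13.4 CPM or less in the other 37. Its high values were 39.95 CPM in pH fish Mys20 and 28.5 CPM in cross fish Mys7065 at 12 h. At 24 h they were 31.7 CPM in pH fish Mys31 and 444 CPM in cross fish Mys7069, and at 2 weeks 24.0 CPM in pH fish Mys54, 74.9 CPM in cross fish Mys7076 and 45.4 CPM in DO fish Mys59. In all, 6 of 21 pH and cross fish and 1 of 23 control and DO fish had such values, at most 1 fish in any of the 12 groups. E at 12 h was 0.25 without pH fish Mys20, 0.27 without cross fish Mys7065 and 0.08 with group medians. At 24 h it was -0.13 without cross fish Mys7069 and 0.23 without pH fish Mys31, and between 0.50 and 1.46 without control fish Mys25, pH fish Mys30, DO fish Mys34 or Mys36, or cross fish Mys7070. At 2 weeks it was 0.22 without pH fish Mys54, 0.49 without cross fish Mys7076, 1.93 without DO fish Mys59 and 2.30 without pH fish Mys53. The second higher member, TRINITY_DN41182_c0_g1 (E of 0.45, 1.20 and 1.5), spanned 0.782 to 726 CPM. Its 24 h values were 483.7, 205.4, 160.5 and 39.9 CPM in control, 629, 343 and 3.77 CPM in pH, 75.5, 13.6 and 2.88 CPM in DO and 726, 303, 249 and 5.16 CPM in cross fish. Here pH minus control was -0.67 and cross minus DO 3.06, both as means of log2 values. In mean CPM pH fish (325) were above control fish (222), and the log2 mean was lower with 1 of 3 pH fish at 3.77 CPM. E turned negative at 12 h without control fish Mys13 (-0.10), pH fish Mys17 (-0.10) or pH fish Mys20 (-0.13) and at 2 weeks without pH fish Mys54 (-0.080). With other single fish left out it ran from 0.11 (DO fish Mys23) to 1.16 (DO fish Mys24) at 12 h, from 0.54 (pH fish Mys32) to 2.30 (pH fish Mys30) at 24 h and up to 3.08 (pH fish Mys53) at 2 weeks. Moves of over 1.5 times were also found without control fish Mys14 or Mys15, pH fish Mys18 or Mys19, or DO fish Mys22 at 12 h, without pH fish Mys31, DO fish Mys34, or cross fish Mys7068 or Mys7071 at 24 h, and without control fish Mys52 or cross fish Mys7079 at 2 weeks.

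TRINITY_DN56027_c42_g2, the second lower member (E of -0.53, -0.68 and -1.32), varied gradually instead, and all 6 of its differences were negative. At 12 h it was at 71.5, 63.0, 40.1 and 26.5 CPM in control, 42.1, 32.3, 29.6 and 21.7 CPM in pH, 85.9, 54.8, 49.3 and 36.4 CPM in DO and 78.3, 48.1, 26.6 and 22.1 CPM in cross fish. At 24 h it was at 90.8, 66.2, 37.5 and 32.6 CPM in control, 21.7, 21.3 and 19.6 CPM in pH, 70.1, 51.3 and 33.6 CPM in DO and 59.1, 52.3, 48.8 and 31.3 CPM in cross fish. All 3 pH fish were below every other fish at 24 h, while cross fish overlapped both control and DO fish. At 24 h the pH group also had the lowest mean in 4357 of the 8371 band features. In how many of these all pH fish were lowest was not counted. At 2 weeks it was at 376, 243, 146 and 54.1 CPM in control, 131 and 30.2 CPM in pH, 469, 67.7, 65.9 and 37.6 CPM in DO and 70.9, 63.0, 44.1 and 10.7 CPM in cross fish, and the ranges of every pair of groups overlapped. With each fish left out in turn its E stayed between -1.84 and -0.40, and the 2-week value was -0.80 without pH fish Mys53.

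**Figure D4:**
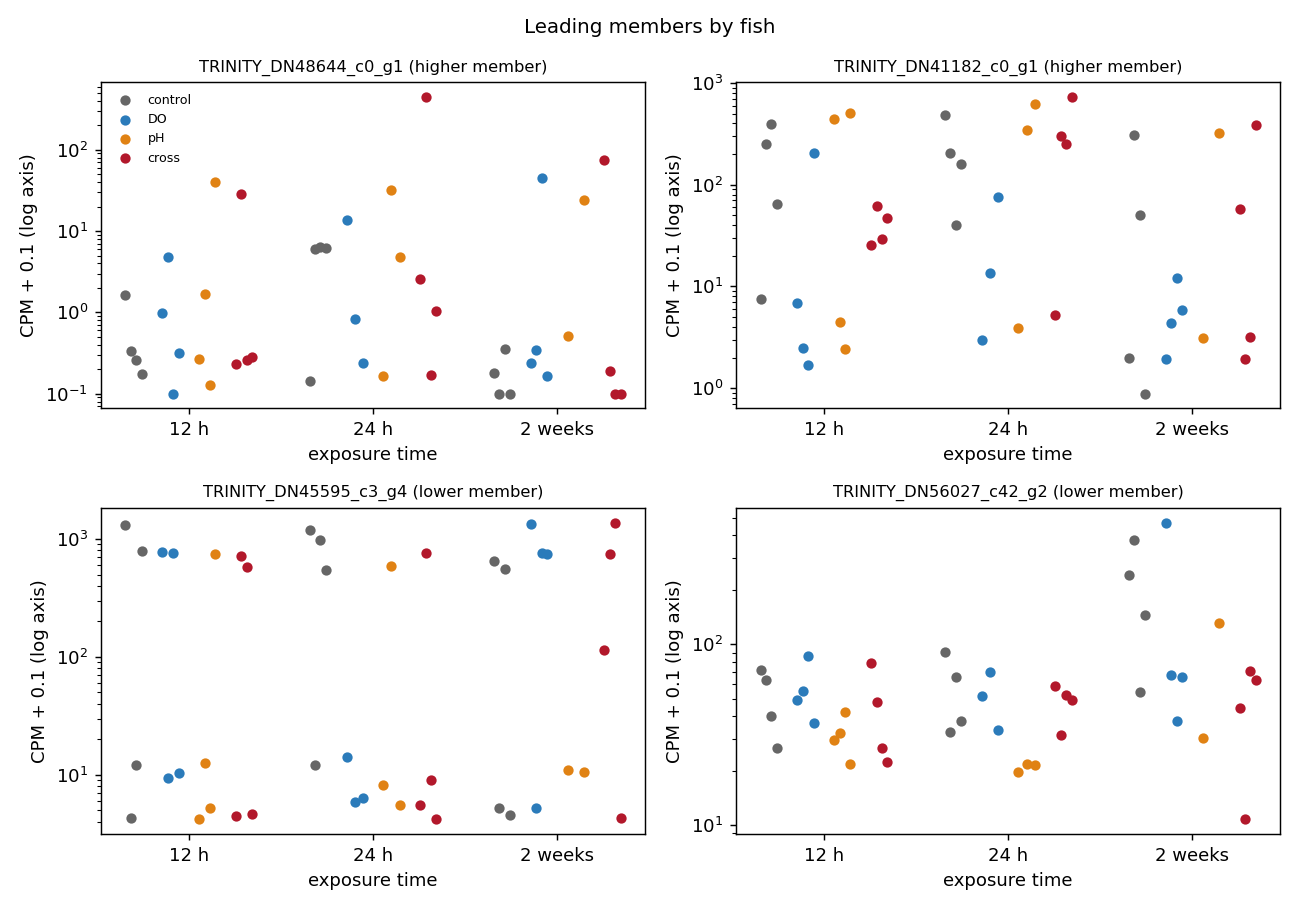
CPM + 0.1 on a log axis (y axis) by exposure time (x axis) in each of the 44 fish (1 point per fish, coloured by exposure) for the 2 leading higher and the 2 leading lower members. TRINITY_DN45595_c3_g4 has 20 fish at 114 CPM or more and 24 at 13.96 CPM or less, and TRINITY_DN48644_c0_g1 has 7 fish at 24.0 CPM or more.

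Part of the lower members varied together between fish of the same group. After the group means were removed, TRINITY_DN51692_c6_g1 had 31 other members at a correlation of at least 0.7 over the 44 fish, more than any other member had, and all 31 were lower members. They were 20.8% of the other members, and 184 of the 8221 band features that are no members (2.24%) were as like it. The median correlation over pairs was 0.13 in members and 0.30 in the band, so members as a whole were less alike than band features. The feature was singled out after these values were seen. At 2 weeks TRINITY_DN51692_c6_g1 itself was at 116, 88.4, 86.2 and 44.6 CPM in control, 45.9 and 29.9 CPM in pH, 94.6, 85.4, 84.1 and 82.4 CPM in DO and 80.8, 77.0, 54.2 and 19.1 CPM in cross fish. All DO fish were above all cross and pH fish there, and control fish Mys49 was below 3 of the cross fish. In how many band features DO fish lay so was not counted. At 24 h control fish ran from 10.4 to 82.0 CPM and pH fish from 14.9 to 58.9 CPM. The block's mean deviation from the group mean correlated at 0.66 with the number of features that had a count in the library, at 0.52 with the library total and at -0.43 with the share of the 100 most abundant features (44 fish, deviations from group means of log2 values, all from the same libraries). The part of library depth and make-up in the block was not tested.

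**Figure D5:**
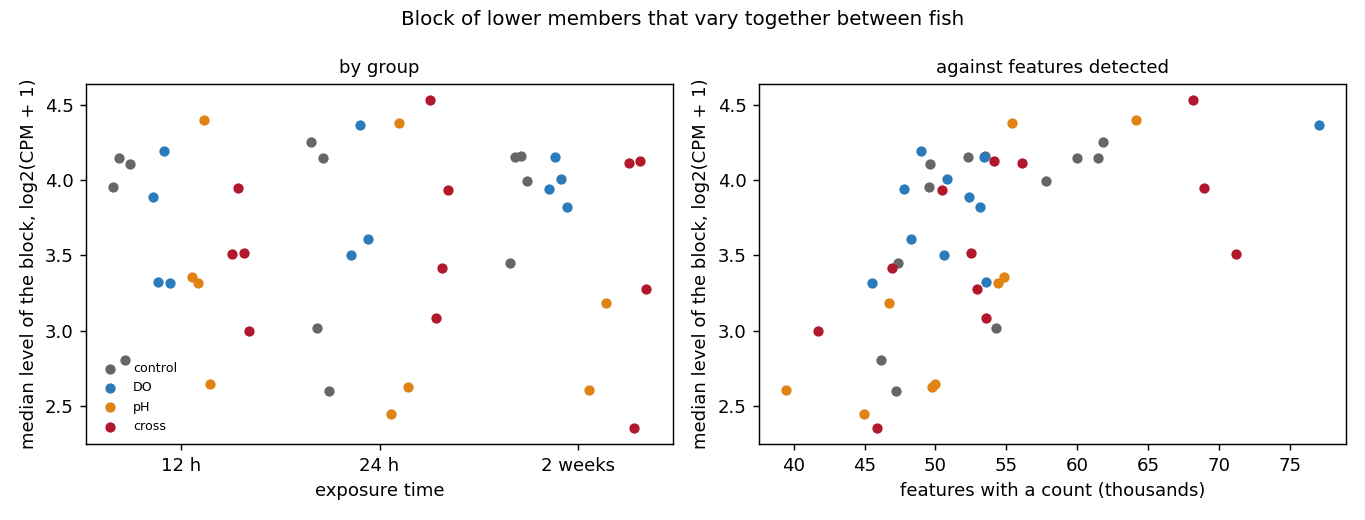
Median level of the block (TRINITY_DN51692_c6_g1 and the 31 members most like it) in log2(CPM + 1) (y axes), 1 point per fish coloured by exposure, by exposure time (left) and against the number of features with a count (right). Levels within 1 group spread over up to 1.9 log2 units, and fish with more features detected tended to have a higher level.

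Features of 1 assembled component share sequence, so their reads may have been split among them. The members came from 148 components: 146 were the only member in theirs, and 2 components held 2 members each. In one pair (TRINITY_DN45251_c8_g4 and TRINITY_DN45251_c8_g6) both were lower and varied together, with a correlation of 0.95 over the 44 fish after group means were removed. In the other, TRINITY_DN56001_c7_g2 was lower (E of -0.41, -1.37 and -0.33) and TRINITY_DN56001_c7_g4 higher (0.29, 0.58 and 0.75), with a correlation of 0.23. Both these pairs were chosen after their values were seen. With features outside the set counted too, 63 members had at least 1 partner in their component with a mean of at least 2 CPM. Of 93 partners of members that were no members and had at least 2 CPM, 10 had the member's sign of E at all 3 times. In the band 484 of 8371 features were lower and 153 higher at all 3 times. Some partners lie outside the band, and whether partners differ from it was not tested.

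In count tests with edgeR (expected counts rounded, TMM scaling, adjusted p under 0.05 over all features tested), no member passed for pCO2 at any time, and neither did any other feature (0.0% of 24701, 26357 and 26595 at 12 h, 24 h and 2 weeks). At an unadjusted p under 0.05 there were 18 members at 12 h (12.0%, against 6.68% of all features), 8 at 24 h (5.33% against 6.2%) and 22 at 2 weeks (14.7% against 9.8%). With limma voom there were 38 of the 150 members at 12 h, against 8.7% of all features. With no low-count filter there were 15 of 150 at 24 h, against 4.66% of all features. The count at 12 h was 29 without control fish Mys15, 31 without pH fish Mys19, 28 without DO fish Mys22, 28 without cross fish Mys7066 and 30 without Mys7067 of that group. The count at 24 h was 4 without control fish Mys25, 15 without control fish Mys28, 3 without pH fish Mys32, 13 without cross fish Mys7068 and 4 without Mys7069 of that group. DESeq2 called 0, 0 and 3 members and limma voom called 0 at each time, and edgeR called 1 at 2 weeks without pH fish Mys54. Neither for these calls nor for the fits with a fish left out is the share over all features given. The edgeR fold had the member's direction at all 3 times in 91 of 120 lower and 24 of 30 higher members. The rule used this contrast, so these counts describe the choice only.

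The oxygen contrast was not itself used in the choice, but all its fish entered E. At 24 h and 2 weeks the groups were of unequal size, and there the contrast is not independent of E. For DO and cross against control and pH, edgeR called 0 members and 0 of all features at each time (0.0%). DESeq2 called 0, 0 and 2 members, and limma voom 0. The share of all features is not given for these calls or for the fits with a fish left out below. At an unadjusted p under 0.05 there were 4 members at 12 h (2.67%, against 5.06% of all features), 12 at 24 h (8.0% against 10.0%) and 16 at 2 weeks (10.7% against 10.8%). With these settings the shares were near or under the background, but the method changed them. With limma voom there were 10 of the 150 members at 12 h, against 6.47% of all features, and 41 of 150 at 24 h, against 15.7%. With no low-count filter there were 13 of 150 at 12 h, against 5.43% of all features. The member shares with limma voom at 24 h and with no filter at 12 h lay above the background. Whether they differ from it was not tested. The median log2 fold change of members was 0.04, 0.07 and 0.08, against 0.00, -0.01 and 0.03 for all features. The count at 12 h was 7 without control fish Mys13, pH fish Mys19 or pH fish Mys20, 8 without DO fish Mys22, 11 without cross fish Mys7067, and 2 without control fish Mys14, pH fish Mys18, DO fish Mys21 or cross fish Mys7064. At 24 h it was 34 without control fish Mys25 and 6 without DO fish Mys35. At 2 weeks it was 34 without cross fish Mys7077 and 10 without control fish Mys49, control fish Mys50, pH fish Mys53 or cross fish Mys7076. Of the 150 features that the same rule gives for the oxygen contrast, 10 were also members (6.67% of each set). That set was 150 of the 8371 band features, and whether the overlap differs from this share was not tested.

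The non-additive contrast, which is cross minus DO less the pH minus control difference, asks whether the pCO2 difference was the same with and without lowered oxygen. edgeR called 0 members at each time, and 0, 0 and 3 of all features (0.0%, 0.0% and 0.0113%). DESeq2 called 0, 0 and 7 members and limma voom 0, and without pH fish Mys54 edgeR called 2 at 2 weeks. For these calls, and for the fits with a fish left out below, the share over all features is not given. At an unadjusted p under 0.05 there were 5 members at 12 h (3.33%, against 6.44% of all features), 8 at 24 h (5.33% against 4.19%) and 18 at 2 weeks (12.0% against 11.7%). At 12 h there were 15 with no low-count filter (6.31% of all features), 11 with limma voom (8.43%) and 8 with DESeq2 (6.87%). At 24 h there were 17 with no filter (3.96%) and 15 with limma voom (9.06%), and at 2 weeks 28 with no filter (5.46%). Of the 18 at 2 weeks 17 were negative (11.3% of members, against 6.44% of all features). The median over members was -0.34, against 0.09 over all features, so on this scale cross minus DO was on balance below pH minus control. In the lower members the median was -0.31. It was -0.64 in the higher members, where the medians of both differences were positive and cross minus DO was the smaller rise. A negative value means that cross was lower than the sum of both single differences gives. The 2-week count rests on 2 pH fish and was 8 without pH fish Mys53. With groups of unequal size at 2 weeks, this contrast is also not independent of E. The count at 12 h was 8 without pH fish Mys18, pH fish Mys19, DO fish Mys22 or cross fish Mys7065, 9 without control fish Mys13 or cross fish Mys7067, and 13 without cross fish Mys7066. At 24 h it was 13 without control fish Mys26, 4 without pH fish Mys32 and 0 without DO fish Mys36.

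Members were called between sampling times about as often as all features. With all exposures averaged in 1 fit of 34070 features, which include less abundant ones than the band, edgeR called 11 members between 24 h and 12 h of the 150 (background over all features 7.7%), 51 between 2 weeks and 12 h (background 32%) and 60 between 2 weeks and 24 h (background 39.6%). Of the 11, 6 rose (background 3.64%) and 5 fell (background 4.06%). From 12 h to 2 weeks 30 rose (background 13.9%) and 21 fell (background 18.1%). From 24 h to 2 weeks 36 rose (background 17.2%) and 24 fell (background 22.4%). Whether the balance of rises and falls differs from that of all features was not tested. The count for 24 h against 12 h was 17 without control fish Mys25 and 7 without control fish Mys27, pH fish Mys32 or DO fish Mys35. No share over all features is given for these fits.

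From 12 h to 2 weeks TRINITY_DN50991_c1_g1 rose, from 0.998, 2.85 and 7.01 CPM (lowest, median and highest of 16 fish) over 1.73, 5.45 and 11.7 CPM at 24 h to 3.51, 11.7 and 21.99 CPM (14 fish each). Its log2 fold change from 12 h to 2 weeks was 1.91 ± 0.21 (SE, edgeR adjusted p = 1.31e-08). Fish of the first and last time overlapped only in part. TRINITY_DN48622_c3_g1 rose by 1.90 ± 0.44 (edgeR adjusted p = 0.00108), with medians of 4.66 and 18.4 CPM. TRINITY_DN43679_c6_g4 kept medians of 13.2 and 13.8 CPM at 12 h and 24 h and had 2.21 CPM at 2 weeks, a log2 fold change of -2.30 ± 0.33 from 12 h (edgeR adjusted p = 1.449e-06). TRINITY_DN51869_c5_g4 had 11.8, 15.97 and 3.07 CPM, with -1.76 ± 0.30 from 12 h to 2 weeks (edgeR adjusted p = 2.395e-05). In both, the low median was found only at 2 weeks.

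From 24 h to 2 weeks TRINITY_DN51939_c4_g3 rose from a median of 2.90 to 11.3 CPM, a log2 fold change of 1.87 ± 0.27 (edgeR adjusted p = 8.211e-07). TRINITY_DN49995_c20_g1 rose by 1.77 ± 0.42 (edgeR adjusted p = 0.00108), although its medians of 12.9 and 16.03 CPM were close, while its highest fish went from 31.1 to 204 CPM. TRINITY_DN44267_c2_g1 fell from 6.28, 9.87 and 21.5 CPM to 0.757, 1.88 and 5.91 CPM (lowest, median and highest of 14 fish), a log2 fold change of -2.36 ± 0.26 (edgeR adjusted p = 3.029e-09). Its fish at 24 h and 2 weeks did not overlap, and in how many features this held was not counted.

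The changes between 12 h and 24 h were less firm. TRINITY_DN50272_c0_g2 rose by 2.99 ± 0.79 to 24 h (edgeR adjusted p = 0.0172), with medians of 0.9 and 4.02 CPM, and fell again by 2 weeks (-2.37 ± 0.89, edgeR adjusted p = 0.0335). The rise lost its call without control fish Mys25 (adjusted p = 0.0887 with edgeR) or pH fish Mys32 (0.0596), and the fall lost it without any of 6 fish. These were control fish Mys25 (-1.27), pH fish Mys32 (-1.76), DO fish Mys34 (-2.14), cross fish Mys7068 (-2.16), pH fish Mys53 (-2.29) and pH fish Mys54 (-2.67), each with its log2 fold change. TRINITY_DN50124_c0_g3 rose by 1.62 ± 0.47 (edgeR adjusted p = 0.0292) with medians of 1.295 and 1.43 CPM, and its highest fish went from 3.26 to 95.9 CPM. That call was lost without control fish Mys27 (log2 fold change 1.54), pH fish Mys32 (1.51), DO fish Mys35 (0.80) or cross fish Mys7068 (0.74). TRINITY_DN55528_c1_g7 fell from a median of 60.5 to 29.9 CPM (-1.01 ± 0.24, edgeR adjusted p = 0.00833) and was at 18.8 CPM at 2 weeks. It kept its call without any 1 of the 44 fish. TRINITY_DN45268_c0_g1 fell from 22.6 to 11.9 CPM (-1.33 ± 0.42, edgeR adjusted p = 0.0436), and the call was lost without any of 17 fish, with log2 fold changes between -1.36 and -1.02. With no low-count filter the calls of TRINITY_DN45268_c0_g1, TRINITY_DN50124_c0_g3 and the later fall of TRINITY_DN50272_c0_g2 were lost (edgeR adjusted p of 0.134, 0.103 and 0.122) at log2 fold changes of -1.33, 1.62 and -2.37, the same as with the filter. With limma voom these 3 and the rise of TRINITY_DN50272_c0_g2 were lost, at log2 fold changes of -0.92, 0.30, -1.16 and 1.48.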

How the data were processed

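White muscle RNA from 44 juvenile fish was measured by sequencing of stranded mRNA libraries, prepared in randomised sets per the labels' protocols. The authors deposited 1 table of expected counts (estimated reads per assembled feature, not normalized) for each of 3 sampling times. The tools named in the submitters' processing notes are RSEM 1.3.0, Bowtie, Trimmomatic 0.36, FastQC 0.11.5 and edgeR. How each was used, and the assembly, is not given in the sources used here. Features carry Trinity identifiers without gene names, so the planned marker lists were not applied.

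CPM was computed from the expected counts as deposited, over column totals, in Python 3.11.15 with pandas 2.3.3. The members, lists and named features were chosen with earlier results of these data known. Named by E were the 2 higher and 2 lower members with the largest smallest |E|, and between times the 2 members with the largest fold change in each direction among those called. For tests, expected counts were rounded and fitted with edgeR 4.0.16 in R 4.3.3, by its robust quasi-likelihood F test (TMM, filterByExpr at 10 counts and a total of 15, Benjamini-Hochberg adjustment over all features tested, threshold 0.05, two-sided). The groups of 1 time entered 1 fit, and all 12 groups the fit across times. All 150 members passed the filter in every fit, which their mean level of 5 CPM or more largely ensured. The edgeR fits at 12 h and over all times, and the shuffles, were run on simulated data with known changes. Those changes were larger than most E of the members, so the power for such small differences was not checked. p-values treat fish as independent, though fish may share aquaria, and cover no difference between aquaria or library sets. Values after ± are SEs worked out from the edgeR test, as the size of the log2 fold change divided by the square root of its F statistic. They include the spread between fish as edgeR estimates it.

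Each fish was left out in turn, and the other alternatives were voom with quality weights in limma 3.58.1, DESeq2 1.42.0, RLE size factors, a filter at 30 counts and no such filter. For the fit over all times, a left-out fit kept the feature set and dispersion trend of all fish. For the member rule, the scaling, pseudocount, level band and group medians were varied.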

Additional observations from a re-analysis of the deposited data

Results flagged for a closer look

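In groups of 4 fish, the highest or lowest CPM of the 4 leading members was compared with its neighbour relative to the range of the group. In 13 of 36 such groups 1 fish stood apart by Dixon's ratio. Its usual rate of about 1 in 20 groups does not apply here, because the 4 members were chosen by E from these same values. The ratio assumes values that spread evenly about a mean, which near on-off features do not have.

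TRINITY_DN48644_c0_g1 had 1 fish apart in 7 groups. These fish were control fish Mys13 at 12 h (1.56 CPM, next value 0.236), pH fish Mys20 at 12 h (39.95 CPM, next 1.58) and cross fish Mys7065 at 12 h (28.5 CPM, next 0.181). At 24 h they were control fish Mys25, which was low (0.042 CPM from 1 count, next 5.87), and cross fish Mys7069 (443.6 CPM, next 2.48). At 2 weeks they were DO fish Mys59 (45.4 CPM, next 0.24) and cross fish Mys7076 (74.9 CPM, next 0.092). All but control fish Mys13 and control fish Mys25 were at 28.5 CPM or more. The next values of 0.092, 0.181, 0.236 and 0.24 CPM stood for only 1, 2, 4 and 4 counts.

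TRINITY_DN41182_c0_g1 had DO fish Mys24 at 12 h (204.6 CPM, next 6.83), control fish Mys50 at 2 weeks (305.3 CPM, next 50.7) and cross fish Mys7079 at 2 weeks (384.0 CPM, next 57.05) apart. TRINITY_DN45595_c3_g4 had pH fish Mys20 at 12 h (741.0 CPM, next 12.4) and cross fish Mys7069 at 24 h (762.7 CPM, next 8.95). These same 2 fish were apart for TRINITY_DN48644_c0_g1. TRINITY_DN56027_c42_g2 had DO fish Mys57 at 2 weeks (469.1 CPM, next 67.7).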

How the results depend on the processing

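Of the 150 members, 70 were kept with TMM scaling, 66 with RLE scaling, 82 with a band of 10 to 250 CPM and 89 with group medians, and with each fish left out 102 to 142 were kept. Without any 1 of the 44 fish, 14 members stayed in the set each time (13 lower, 1 higher). A pseudocount of 0.5 kept 142 and one of 5 kept 128. The 637 features with E of 1 sign became 1152 with TMM, 1170 with RLE and 325 with the narrower band, and 503 to 971 with a fish left out (956 without control fish Mys15 and 971 without cross fish Mys7064, both at 12 h). The narrower band held 82 of the members and kept all 82, so the members it lost were those outside it. It also held fewer features, 4976 against 8371. For the other changes the cause was not tested.

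With no low-count filter edgeR called 1 member for pCO2 at 24 h and 6 at 2 weeks, 2 for oxygen and 5 for the non-additive part at 2 weeks. DESeq2 called 3, 2 and 7 at 2 weeks for pCO2, oxygen and the non-additive part. With a fish left out the count at 2 weeks was 0 to 1 for pCO2 and 0 to 2 for the non-additive part, and 0 for oxygen. Between 24 h and 12 h limma voom called 6 members, and 7 to 17 were called with a fish left out. Between 2 weeks and 12 h all alternatives gave 44 to 57 members, and between 2 weeks and 24 h 48 to 63. Shares over all features are not given for these alternatives, so the member counts have no background here. The cause was not tested.

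The sign of E at all 3 times was kept by 125 of the 147 members in the band with TMM or RLE, by 129 of 150 with group medians and by 128 (without DO fish Mys35) to 150 members with a fish left out. Among the 4 leading members E changed sign in 5 cases: for TRINITY_DN41182_c0_g1 at 12 h without control fish Mys13 (-0.10), pH fish Mys17 (-0.10) or pH fish Mys20 (-0.13) and at 2 weeks without pH fish Mys54 (-0.080), and for TRINITY_DN48644_c0_g1 at 24 h without cross fish Mys7069 (-0.13). With any 1 fish left out, E of TRINITY_DN41182_c0_g1 ran from -0.13 to 1.16 at 12 h and from -0.080 to 3.08 at 2 weeks, and E of TRINITY_DN48644_c0_g1 at 24 h from -0.13 to 1.46. No paired analysis was possible because fish numbers are not shared between groups.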
